A study of Mus musculus with 4 samples.

Results

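Matrix metalloproteinases (MMPs) and their tissue inhibitors (TIMPs) were followed in myeloid cells sorted from mouse livers. The 10 genes were fixed by name: the proteases Mmp8, Mmp9, Mmp12, Mmp13, Mmp14, Mmp19 and Mmp25, and the inhibitors Timp1, Timp2 and Timp3. All 10 were among the 55487 Ensembl genes of the count table and had reads, and 9 of them passed the filter on low counts that left 13496 genes for testing. Timp3 did not pass it. One genotype was LysM-Cre IL10R fl/fl (n = 2 libraries), in which Cre made from the lysozyme 2 locus can delete a floxed interleukin-10 receptor gene in macrophages, monocytes and granulocytes. The controls were LysM-Cre IL10R wt/wt (n = 2 libraries), which carry the same Cre and no floxed allele. Cells were sorted as CD45+ CD3- CD11c- CD11b+, a gate that admits neutrophils, their precursors, monocytes and macrophages together. The labels give neither the receptor chain, the age and sex of the mice, nor whether libraries of a genotype came from separate animals, so the tests measure the spread between these libraries.

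MMPs are zinc-dependent proteases that cut collagens, elastin, gelatin and other matrix proteins, and most of them are secreted as inactive proforms. Neutrophils store collagenase and gelatinase in granules made during their development in the marrow, whereas macrophages make other MMPs on demand when they are activated. TIMPs bind the active site of the proteases in a tight complex. In liver, the balance of MMPs and TIMPs governs the build-up and removal of scar tissue.

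Library totals ran from 17154042 to 26441014 counts, and a library with 0 counts of a gene can hold up to 3, which corresponds to 0.111 to 0.175 CPM (counts per 1000000, scaled by the trimmed mean of M-values, TMM). Counting intervals and floors cover counting error only. Il10ra, the ligand-binding receptor chain, had 1190 and 260 counts in fl/fl libraries 1 and 2, against 24730 and 26968 in wt/wt libraries 1 and 2. Xist, made by the inactive X chromosome of females, was read in fl/fl 2 alone (4298 counts, against 0 elsewhere), so the fl/fl pair mixed sexes. Y-linked genes together had 3455 counts in fl/fl 1 and 1 in fl/fl 2, with 5207 and 6562 in the wt/wt pair, so leaving out fl/fl 2 leaves male libraries. Of 9 markers of resident Kupffer cells, Clec4f, Vsig4, Timd4 and Folr2 were under 1 CPM in every library, with Clec4f at 0.873 and 0.114 CPM in fl/fl cells and 0 and 0.147 CPM in wt/wt cells. The list summed to 224 and 329 CPM in fl/fl cells and 197 and 179 CPM in wt/wt cells, mostly from Id3 and the iron exporter gene Slc40a1, and of its 4 tested genes edgeR and DESeq2 called 0 (1 had an unadjusted p under 0.05).

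Marker genes of several cell types that the gate can hold differed between the genotypes. Of 12 mature neutrophil markers (Mmp8 and Mmp9 left out of the list), 7 were higher in fl/fl cells and 0 lower, and their summed level in CPM was 28115 and 12385 for libraries 1 and 2 of fl/fl, against 3155 and 3819 for those of wt/wt. The 12 granulocyte precursor markers found in the table, none of them at 0 counts, summed to 21032 and 8712 CPM in fl/fl cells and 2436 and 1804 CPM in wt/wt cells, and 10 were higher. Of 12 macrophage markers 6 were lower and 0 higher, with sums of 6477 and 4379 CPM in fl/fl cells and 12929 and 12688 CPM in wt/wt cells. Classical monocyte markers gave 3 higher and 1 lower of 10, with sums of 19570 and 12356 CPM in fl/fl cells and 12679 and 10490.1 CPM in wt/wt cells. Basophil and mast cell markers, 1 of 8 higher, summed to 537 and 376 CPM in fl/fl cells and 106 and 164 CPM in wt/wt cells. Dendritic cell markers, 1 of 7 tested lower, summed to 57.0 and 91.5 CPM in fl/fl cells and 203 and 191 CPM in wt/wt cells. The neutrophil sum of fl/fl 1 was 2.27-fold that of fl/fl 2. Without fl/fl 2, 11 of the neutrophil markers passed, and the macrophage markers lower numbered 9 without fl/fl 1 and 8 without fl/fl 2, in edgeR. With wt/wt 1 or wt/wt 2 left out, edgeR called 0 markers of both lists, and DESeq2 called 6 and 7 neutrophil markers higher and 4 and 5 macrophage markers lower. In sorted bulk RNA, a change in the number of cells of a type and a change in RNA per cell cannot be told apart, and the part of the marker shifts in the results below was not tested beyond the ratios given.

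Mmp8, Mmp12 and Mmp13 lie in one cluster of 10 MMP genes on chromosome 9 (GRCm38 7272514 to 7699585, 427.1 kb), with 5 of the 10 genes at 0 counts in every library. Its members lie in the order Mmp13 (7272514 to 7283331), Mmp12 (7344381 to 7369499) and Mmp8 (7558456 to 7568485), each on the plus strand. The cluster goes on past Mmp8 to Mmp27, Mmp20 and Mmp7. Among the members followed here, Mmp25 and Timp2 are on the minus strand and the rest on the plus strand. The other members are dispersed: Mmp9 on chromosome 2 (164940780 to 164955850), Timp3 and Mmp19 on chromosome 10 (86300372 to 86349506 and 128790910 to 128800824), Timp2 on chromosome 11 (118301069 to 118355740), Mmp14 on chromosome 14 (54431612 to 54445364), Mmp25 on chromosome 17 (23628311 to 23645277) and Timp1 on the X chromosome (20870166 to 20874735). Positions are those of GENCODE M21. Exons on the opposite strand cover 28.3% of the exonic length of Mmp19, 21.3% of Timp3 and 2.17% of Mmp12, and since the strand setting of the counting is not given in the sources used here, reads there cannot be assigned to a strand.

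The 250 bases before the start of the 3 cluster members are shown because these neighbours differed in direction between the genotypes. For Mmp12 only the window of its second start, which lies inside the gene, is printed. Sequences are from RefSeq (GRCm38.p6, plus strand), and 8 of the 10 genes had an entry; Mmp9 and Mmp19 had none. Capitals mark every match to 4 motifs: AP-1 (TGANTCA), the PU.1 core (GAGGAA), C/EBP (TTGNNCAA), each searched on both strands, and the TATA box (TATAAA) on the strand of the gene. The matches do not overlap each other.
Mmp8, chr9:7558179-7558428: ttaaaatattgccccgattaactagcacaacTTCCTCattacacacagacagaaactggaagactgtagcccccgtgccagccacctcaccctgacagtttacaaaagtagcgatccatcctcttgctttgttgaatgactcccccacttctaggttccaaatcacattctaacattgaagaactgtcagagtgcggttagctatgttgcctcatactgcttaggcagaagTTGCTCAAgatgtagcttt
Mmp12, second start, chr9:7347124-7347373: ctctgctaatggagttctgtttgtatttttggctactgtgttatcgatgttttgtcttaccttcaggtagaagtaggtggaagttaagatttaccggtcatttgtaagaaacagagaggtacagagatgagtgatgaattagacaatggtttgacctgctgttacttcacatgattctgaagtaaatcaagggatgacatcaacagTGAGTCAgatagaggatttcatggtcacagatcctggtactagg
Mmp13, chr9:7272264-7272513: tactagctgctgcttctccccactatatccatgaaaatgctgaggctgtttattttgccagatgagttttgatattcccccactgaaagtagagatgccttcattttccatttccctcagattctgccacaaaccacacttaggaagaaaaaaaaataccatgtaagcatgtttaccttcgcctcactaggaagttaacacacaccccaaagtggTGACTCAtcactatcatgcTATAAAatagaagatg
An AP-1 match stood 44 bases before the second Mmp12 start and 35 bases before that of Mmp13, and 6.75% of 32851 windows of this length hold one. The window of the first Mmp12 start (7344147 to 7344396), at the start of the annotated gene, held no AP-1 match. The Mmp13 window held a TATA box as well (7.59% of windows). The Mmp8 window held a C/EBP match (5.65% of windows) 19 bases before the start and a PU.1 core match (23.3% of windows) farther out. Mmp25 and the first Mmp12 start had 1 PU.1 core match each, and the windows of Mmp14, Timp1, Timp2 and Timp3 had none of the 4 motifs. Such matches describe the letters of a window and not the binding of a factor.

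**Figure D1:**
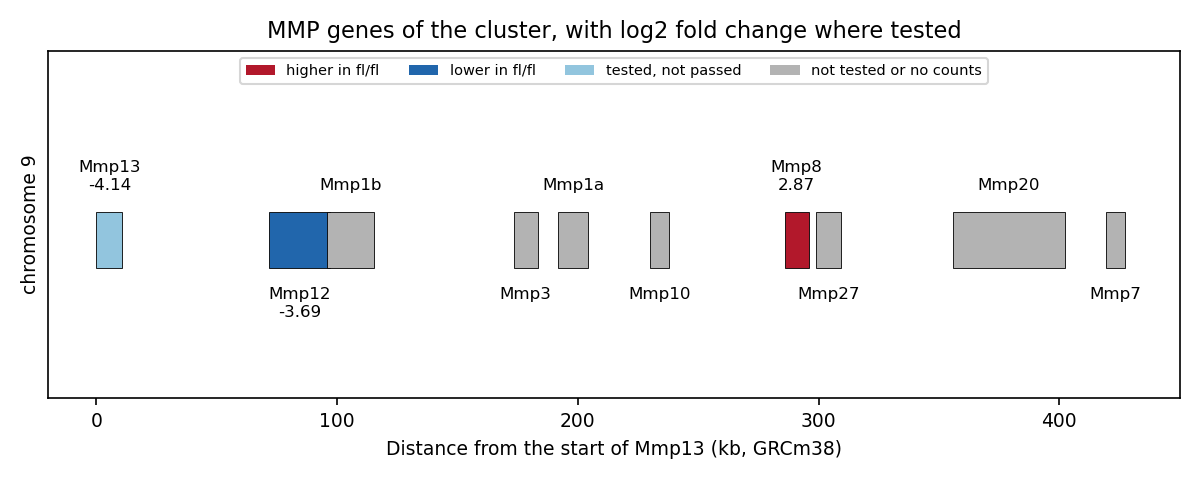
Map of the MMP cluster on chromosome 9, with distance from the start of Mmp13 in kb on the horizontal axis and 1 box per gene. Numbers are log2 fold changes of fl/fl over wt/wt where a gene was tested: Mmp13 at −4.14 (not passed) and Mmp12 at −3.69 (lower) stand at one end, and Mmp8 at 2.87 (higher) lies beyond a stretch of genes with 0 counts.

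The design asks how the expression of these proteases and inhibitors differs between fl/fl and wt/wt cells. Of the 9 tested members, 2 were higher in fl/fl cells (Mmp8 and Mmp25), 3 were lower (Mmp12, Mmp14 and Timp1) and 4 did not pass (Mmp9, Mmp13, Mmp19 and Timp2), by the edgeR quasi-likelihood test at an adjusted p under 0.05. Over all 13496 tested genes, 5.85% passed, 2.69% higher and 3.16% lower. The median log2 fold change was 0.19 for the 9 members and 0.02 for all genes. The CPM of the genotypes did not overlap for 8 of the 9 members, the exception being Mmp19, and for 54.4% of all tested genes. The members were chosen with results of these data known, so these counts describe them and are not independent support. Each edgeR call among the members needed both wt/wt libraries: without wt/wt 1 or wt/wt 2, 0 members and 0 genes passed, although 1576 and 2333 genes had an unadjusted p under 0.05. DESeq2 on the same 3 libraries called 496 genes without wt/wt 1, with Mmp9 higher and Mmp14 and Timp1 lower, and 784 genes without wt/wt 2, with Mmp9 higher and Mmp12 and Mmp14 lower.

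**Figure D2:**
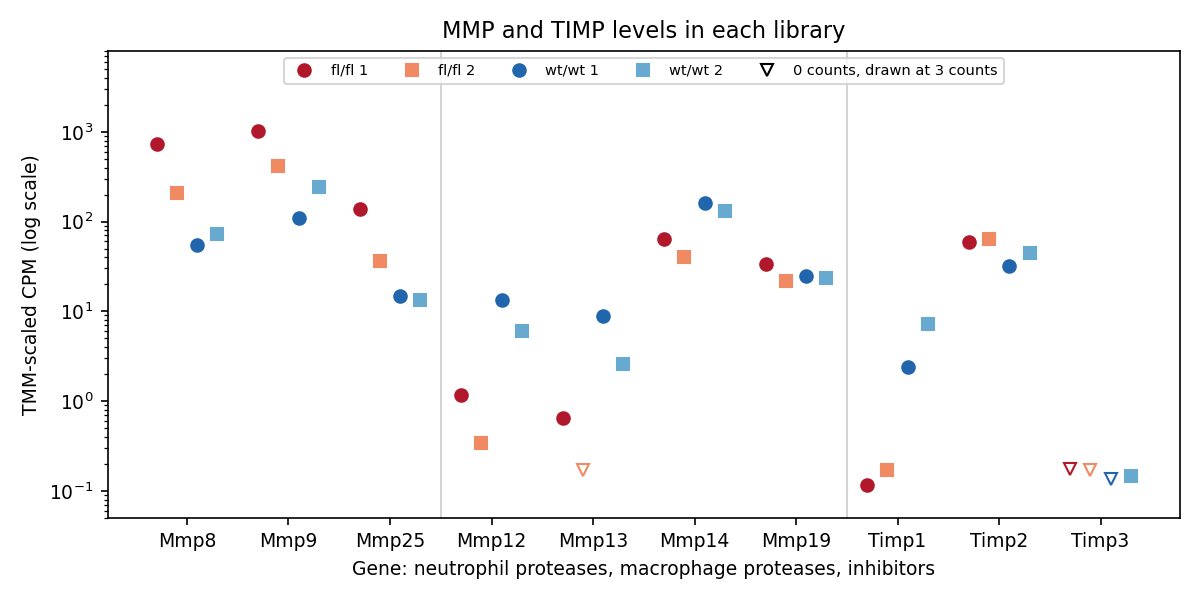
TMM-scaled CPM of the 10 genes on a log axis, 1 point per library, with fl/fl left of wt/wt for each gene. Both fl/fl points lie above both wt/wt points for Mmp8, Mmp9, Mmp25 and Timp2, and below them for Mmp12, Mmp13, Mmp14 and Timp1; open triangles stand for 0 counts, drawn at the level of 3 counts.

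The proteases of neutrophil granules and membranes were at their highest in fl/fl 1. Mmp8 (ENSMUSG00000005800), the neutrophil collagenase of secondary granules, had 739 and 206 CPM in libraries 1 and 2 of fl/fl, against 55.4 and 73.4 CPM in those of wt/wt. Both fl/fl libraries stood above both wt/wt libraries, and fl/fl 1 was 3.59-fold above fl/fl 2. Its mean was 473 ± 377 CPM in fl/fl cells and 64.4 ± 12.7 CPM in wt/wt cells (SD, n = 2 each), a log2 fold change of 2.87 ± 0.56 (SE; adjusted p = 0.0355, edgeR). The Mmp8 value was 1.64 in the fit without fl/fl 1 and 3.53 in that without fl/fl 2, with adjusted p from 3.37e-42 to 0.557 over 15 alternative settings. Mmp25 (ENSMUSG00000023903), a membrane-anchored MMP also known as leukolysin, was likewise highest in fl/fl 1. It had 138 and 36.1 CPM in fl/fl cells, against 14.8 and 13.5 CPM in wt/wt cells, so that the wt/wt pair lay close together and fl/fl 1 was 3.82-fold above fl/fl 2. Mmp25 had a log2 fold change of 2.62 ± 0.57 (SE; adjusted p = 0.0473, edgeR), and it came to 1.32 with fl/fl 1 left out and 3.29 with fl/fl 2 left out. Limma-voom did not call Mmp25 (adjusted p = 0.0818, in a range of 1.76e-28 to 0.597 over the settings).

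Mmp9 (ENSMUSG00000017737), gelatinase B of the tertiary granules, did not pass the test although its groups were apart. Its levels were 1026 and 418 CPM in fl/fl cells, against 109 and 242 CPM in wt/wt cells. The genotypes did not overlap, but the wt/wt libraries themselves differed, wt/wt 1 being at 0.450 times wt/wt 2. The means were 722 ± 430 CPM in fl/fl cells and 175.5 ± 94.1 CPM in wt/wt cells (SD, n = 2 each). Mmp9 had a log2 fold change of 2.04 ± 0.51 (SE; adjusted p = 0.0681, edgeR). It was 1.21 without fl/fl 1, 2.55 without fl/fl 2, 1.53 without wt/wt 1 and 2.73 without wt/wt 2. Mmp9 passed under 6 of 15 settings, library size scaling among them (adjusted p = 0.0444, in a range of 1.74e-21 to 0.645).

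Against the summed neutrophil markers of the same library, these genes gave values that overlapped between the genotypes. S100a9 was the largest part of that sum, at 12617 and 5566 CPM in fl/fl cells and 923 and 1200 CPM in wt/wt cells. Log2 fold changes of single neutrophil markers ran from 0.73 (Csf3r) to 3.596 (Ly6g). Whether these genes overlap therefore depends on the markers summed, and the overlap does not settle the part of neutrophil content. Per 1000 CPM of mature neutrophil markers, Mmp8 stood at 26.3 and 16.6 in fl/fl cells and at 17.6 and 19.2 in wt/wt cells. Mmp25 stood at 4.91 and 2.92 in fl/fl cells and at 4.68 and 3.54 in wt/wt cells. Mmp9 stood at 36.5 and 33.8 in fl/fl cells and at 34.5 and 63.4 in wt/wt cells, where wt/wt 2 was the highest library. These ratios were not tested.

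**Figure D3:**
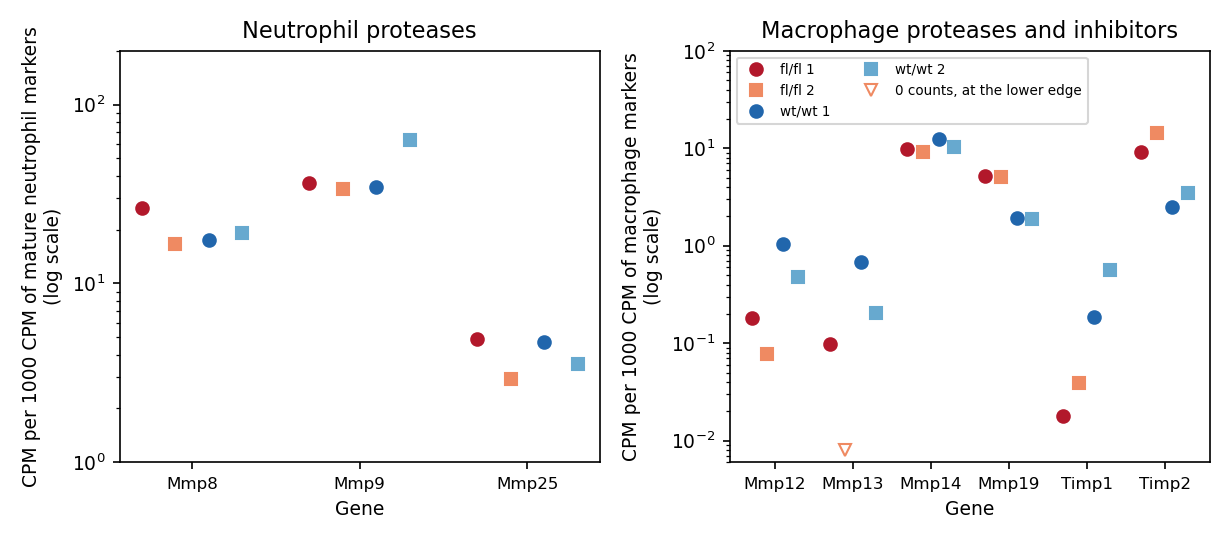
CPM of each gene per 1000 CPM of marker genes in the same library, on log axes. The left panel sets Mmp8, Mmp9 and Mmp25 against the sum of mature neutrophil markers, where fl/fl and wt/wt points overlap. The right panel sets the other genes against macrophage markers, where both fl/fl points lie below both wt/wt points for Mmp12, Mmp13, Mmp14 and Timp1 and above them for Mmp19 and Timp2.

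Of the 4 macrophage proteases, Mmp12 and Mmp14 were lower in fl/fl cells, and Mmp13 and Mmp19 did not pass. Mmp12 (ENSMUSG00000049723), the macrophage elastase, had 1.16 and 0.342 CPM in fl/fl cells (20 and 6 counts), against 13.4 and 6.08 CPM in wt/wt cells (299 and 165 counts). Both fl/fl libraries were below both wt/wt libraries, and each pair differed within itself by 3.40-fold and 2.21-fold. Mmp12 had a log2 fold change of −3.69 ± 0.67 (SE; adjusted p = 0.0294, edgeR), with −4.84 in the fit lacking fl/fl 1 and −3.05 in those lacking fl/fl 2 or wt/wt 1. The summed counts give a wt/wt level 12.5 times that of fl/fl (95% exact binomial interval 8.44 to 19.4). Limma-voom did not call Mmp12 (adjusted p = 0.0789, in a range of 4.51e-13 to 0.252 over the settings).

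Mmp13 (ENSMUSG00000050578), the collagenase that serves as the main interstitial collagenase of rodents, had 0.641 and 0 CPM in fl/fl cells (11 and 0 counts), against 8.85 and 2.62 CPM in wt/wt cells (197 and 71 counts). The lower wt/wt library was above the higher fl/fl library, but wt/wt 1 was 3.38-fold above wt/wt 2, and the log2 fold change of −4.14 ± 1.14 (SE) did not pass (adjusted p = 0.0875, edgeR). It passed under 6 of 15 settings. Without fl/fl 2 it was −3.14 (adjusted p = 0.0482, edgeR), without wt/wt 1 −3.06 and without wt/wt 2 −4.76. With fl/fl 2 as the lone fl/fl library the fitted value rests on the prior count, and the wt/wt mean was at least 33.5-fold higher than the floor of 3 counts in that library. Fibroblast and stellate cell markers summed to 13.5 and 17.8 CPM in fl/fl cells and to 37.0 and 11.7 CPM in wt/wt cells, with Lrat and Reln at 0 counts in all libraries. The collagen gene Col3a1 was at 11.3 CPM in wt/wt 1, 0.405 CPM in wt/wt 2 and at most 0.466 CPM in fl/fl cells. Acta2 of the same list went the other way, at 7.86 and 13.1 CPM in fl/fl cells and 5.08 and 7.22 CPM in wt/wt cells. It was the largest part of the fl/fl sums. The part of fibroblasts and stellate cells in the Mmp13 values was not tested.

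Mmp14 (ENSMUSG00000000957), the membrane-type MMP that activates pro-MMP2 at the cell surface, was the highest of the 4 macrophage proteases in each library when levels were set per length. It had 63.4 and 40.3 CPM in fl/fl cells, against 159.7 and 129 CPM in wt/wt cells, with means of 51.8 ± 16.3 CPM and 144.6 ± 21.4 CPM (SD, n = 2 each). All fl/fl values were below all wt/wt values, the wt/wt mean being 2.79 times that of fl/fl. The log2 fold change of −1.48 ± 0.25 (SE; adjusted p = 0.0245, edgeR) lay between −1.88 and −1.18 with single libraries left out, and limma-voom and DESeq2 called Mmp14 as well. Mmp19 (ENSMUSG00000025355), an MMP of macrophages and other cells, was at 33.4 and 22.0 CPM in fl/fl cells and at 24.8 and 23.7 CPM in wt/wt cells. The fl/fl libraries of Mmp19 lay on both sides of the wt/wt pair, and its log2 fold change was 0.19 ± 0.24 (SE; 95% normal interval −0.28 to 0.66; adjusted p = 0.715, edgeR). It was −0.18 without fl/fl 1.

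Relative to the macrophage marker sum the 4 genes differed from each other. Apoe was the largest part of that sum, at 3129 and 1794 CPM in fl/fl cells and 7053 and 7186 CPM in wt/wt cells. Log2 fold changes of single markers ran from −3.11 (C1qa) to 0.02 (Cd14), with Apoe at −1.53. Ratios to the sum, for these genes and for the TIMPs, therefore depend on the markers summed. Per 1000 CPM of those markers, Mmp14 stood at 9.78 and 9.20 in fl/fl cells and at 12.4 and 10.2 in wt/wt cells, close to each other. Mmp12 stood at 0.180 and 0.0782 in fl/fl cells and at 1.04 and 0.479 in wt/wt cells, so both fl/fl values remained the lower ones, as did those of Mmp13 at 0.0989 and 0 in fl/fl cells and 0.684 and 0.206 in wt/wt cells. Mmp19 stood at 5.15 and 5.03 in fl/fl cells and at 1.92 and 1.87 in wt/wt cells, higher in both fl/fl libraries on this base while its CPM overlapped. These ratios were not tested.

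**Figure D4:**
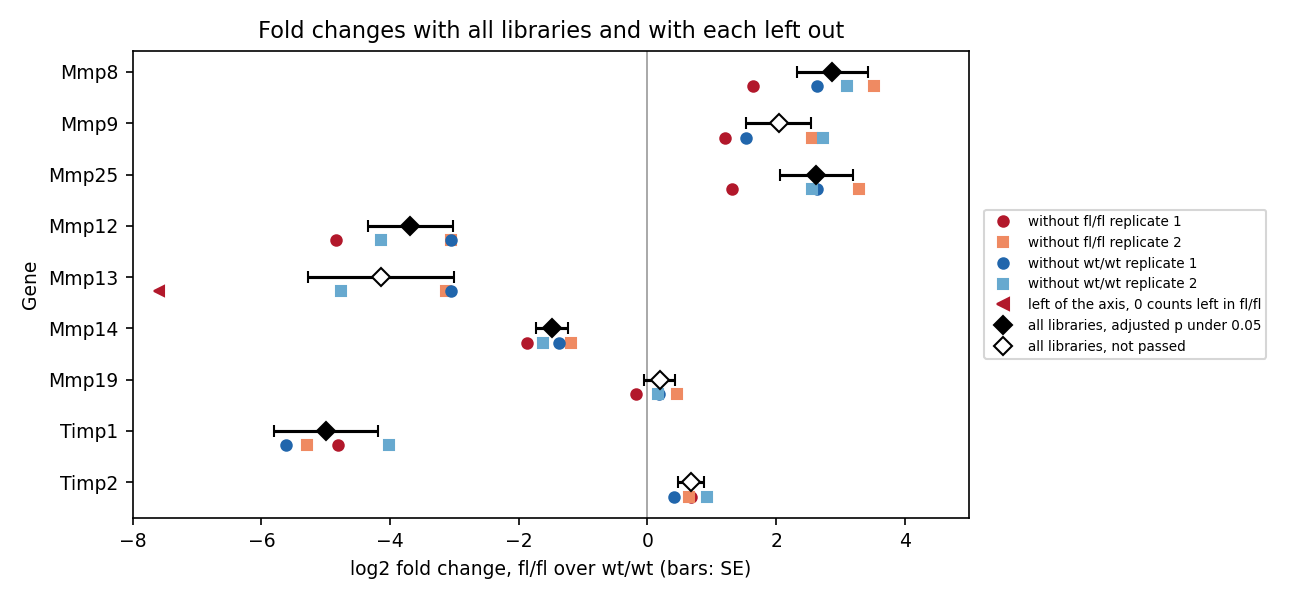
Log2 fold change of fl/fl over wt/wt for the 9 tested genes, with diamonds for the fit to all 4 libraries (bars show the SE; filled, adjusted p under 0.05) and small symbols for fits with 1 library left out. The Mmp8, Mmp9 and Mmp25 values are smallest without fl/fl 1, at 1.64, 1.21 and 1.32, and the Mmp13 value without fl/fl 1 lies left of the axis because the remaining fl/fl library had 0 counts.

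Of the 3 inhibitors, Timp1 was lower in fl/fl cells, Timp2 did not pass and Timp3 was not tested. Timp1 (ENSMUSG00000001131), the secreted inhibitor that binds pro-MMP9, had 2 and 3 counts in fl/fl 1 and 2 (0.116 and 0.171 CPM), against 54 and 194 counts in wt/wt 1 and 2 (2.43 and 7.15 CPM). It was at or under the floor of 3 counts in both fl/fl libraries and present in both wt/wt libraries, wt/wt 1 being at 0.339 times wt/wt 2. The summed counts give a wt/wt level 34.8 times that of fl/fl (95% exact binomial interval 14.7 to 108). Timp1 had a log2 fold change of −5.00 ± 0.81 (SE; adjusted p = 0.0223, edgeR), and −3.72 with a prior count of 5. It came to −5.62 with wt/wt 1 left out and −4.01 with wt/wt 2 left out. It was −5.30 without fl/fl 2, the female library (the gene is X-linked). Limma-voom did not call Timp1 (adjusted p = 0.122, in a range of 1.02e-10 to 0.219 over the settings). Of the 9 tested members Timp1 had the lowest log2 fold change, the 23rd lowest of the 13496 genes. Against macrophage markers it stood at 0.0180 and 0.0391 per 1000 CPM in fl/fl cells and at 0.188 and 0.563 in wt/wt cells.

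Timp2 (ENSMUSG00000017466), which both inhibits MMPs and bridges pro-MMP2 to Mmp14, held most of the length-scaled TIMP level in every library. It had 59.7 and 63.2 CPM in fl/fl cells, against 32.3 and 44.5 CPM in wt/wt cells. Both fl/fl libraries were above both wt/wt libraries by a small margin, with a log2 fold change of 0.68 ± 0.20 (SE; adjusted p = 0.107, edgeR) that did not pass. Per 1000 CPM of macrophage markers Timp2 stood at 9.22 and 14.4 in fl/fl cells and at 2.5 and 3.51 in wt/wt cells, farther apart than its CPM; this ratio was not tested. Timp3 (ENSMUSG00000020044), the matrix-bound inhibitor, had 0 counts in fl/fl 1, fl/fl 2 and wt/wt 1 and 4 counts in wt/wt 2. At this depth no difference in Timp3 was detectable.

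Levels of different genes were set side by side after division by exonic length, as TPM (transcripts per 1000000) computed from gene counts. On that scale the 3 neutrophil proteases made up 96.8% and 94.1% of the summed level of the 7 MMPs in libraries 1 and 2 of fl/fl, against 59.1% and 77.0% in those of wt/wt. Mmp8 and Mmp9 together held 92.7% and 91.1% in fl/fl cells and 56.2% and 75.0% in wt/wt cells. The share of Mmp14 was 1.66% and 3.03% in fl/fl cells, against 28.1% and 16.5% in wt/wt cells. The share of the neutrophil proteases was thus larger in both fl/fl libraries, and that of Mmp14 larger in both wt/wt libraries. With the longest annotated transcript as length the neutrophil protease share was 95.7% and 92.2% in fl/fl cells, against 49.0% and 69.0% in wt/wt cells. In absolute terms the neutrophil proteases summed to 1569 and 593 TPM in fl/fl cells and to 164 and 311 TPM in wt/wt cells, and the macrophage proteases to 51.8 and 36.9 TPM in fl/fl cells and to 113 and 93.1 TPM in wt/wt cells.

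Within fl/fl 1 the order by TPM was Mmp8 (771) and Mmp9 (733), then Mmp25 (65.8), Timp2 (38.8), Mmp14 (26.9) and Mmp19 (23.9), with the remaining genes under 1 TPM. In fl/fl 2 Mmp9 (334 TPM) stood above Mmp8 (240.0 TPM), so the order of this pair was not the same in both libraries, and by longest transcript Mmp9 also led in fl/fl 1 (635 against 599 TPM for Mmp8). In wt/wt 1 the order was Mmp9 (89.5), Mmp14 (77.9) and Mmp8 (66.4), and in wt/wt 2 it was Mmp9 (210.5), Mmp8 (93.1) and Mmp14 (66.9). By longest transcript Mmp14 led in wt/wt 1, at 110.0 TPM against 76.6 TPM for Mmp9. The TIMP sum was 39.1 and 46.4 TPM in fl/fl cells, against 32.0 and 60.0 TPM in wt/wt cells, and overlapped. Timp1 made up 0.848% and 1.17% of it in fl/fl cells, against 24.8% and 41.3% in wt/wt cells. The MMP sum was 41.5 and 13.6 times the TIMP sum in fl/fl cells, against 8.66 and 6.74 times in wt/wt cells. These shares and sums were given as descriptions, with no test.

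**Figure D5:**
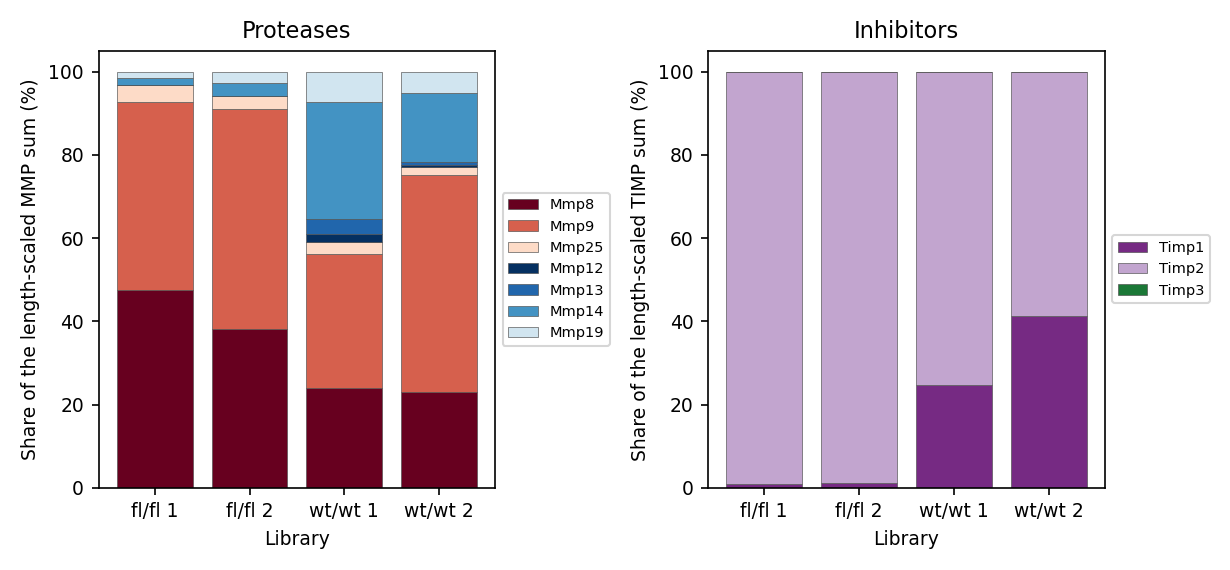
Stacked bars of the share of each gene in the summed length-scaled level (TPM) of the 7 proteases, on the left, and the 3 inhibitors, on the right, in each library. Mmp8 and Mmp9 together fill 92.7% and 91.1% of the protease bar in fl/fl 1 and 2 and 56.2% and 75.0% in wt/wt 1 and 2, and Timp1 fills 24.8% and 41.3% of the inhibitor bar in wt/wt cells but 0.848% and 1.17% in fl/fl cells.

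Of the 17 other MMP and TIMP genes of the family, 9 had counts, 2 passed the filter and neither was called by edgeR (none had an unadjusted p under 0.05, and DESeq2 and limma-voom called 0 as well). Mmp2, gelatinase A, was at 1.86 and 1.88 CPM in fl/fl cells and at 3.64 and 2.98 CPM in wt/wt cells (log2 fold change −0.82 ± 0.44, SE; adjusted p = 0.33, edgeR). Mmp28, or epilysin, was at 1.81 and 2.00 CPM in fl/fl cells and at 1.30 and 1.44 CPM in wt/wt cells (log2 fold change 0.47 ± 0.53, SE; adjusted p = 0.669, edgeR). Mmp27 had 12 and 8 counts in fl/fl cells and 0 in both wt/wt libraries, at least 4.71-fold higher in fl/fl cells against the mean floor of 3 counts per wt/wt library, and was not tested. The Mmp27 gene starts 2911 bases beyond the end of Mmp8 on the same strand, and the part of Mmp8 transcripts in its counts was not tested. Mmp11, Mmp17, Mmp23 and Mmp24 had 16, 14, 22 and 14 counts over the 4 libraries.

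Among 16 tested genes that activate MMPs or hold them at the cell surface, 4 were higher in fl/fl cells and 1 was lower, with a median log2 fold change of −0.04 against 0.02 for all genes. The 4 higher genes are products of granulocytes and their precursors. Of these, Elane, Prtn3 and Ctsg were also counted in the list of granulocyte precursor markers above. Elane and Prtn3, the granule proteases neutrophil elastase and proteinase 3, and Ctsg, cathepsin G, differed by 5.55, 4.19 and 5.53 on the log2 scale (edgeR adjusted p = 0.0124, 0.0120 and 0.0306). Lcn2, the lipocalin that forms a complex with MMP9, was at 3.77 (adjusted p = 0.0197), with 2876 and 816 CPM in fl/fl cells and 119 and 151 CPM in wt/wt cells. The lower gene was Plau, the urokinase that makes plasmin, an activator of several proforms. Plau had 43.6 and 22.9 CPM in fl/fl cells, against 306 and 189 CPM in wt/wt cells, with a log2 fold change of −2.90 ± 0.37 (SE; adjusted p = 0.0141, edgeR). At an unadjusted p under 0.05, 4 genes of the list were higher and 5 lower, and DESeq2 called 4 and 4. For this list and those that follow, the base is all 13496 tested genes. Of these, 1596 were higher and 1444 lower at an unadjusted p under 0.05 in edgeR. At an adjusted p under 0.05, edgeR called 363 higher and 427 lower, DESeq2 784 and 834, and limma-voom 255 and 410. The edgeR counts were 4 and 1 without fl/fl 1 or fl/fl 2, and 0 and 0 without either wt/wt library, where DESeq2 called 2 and 1 (wt/wt 1 left out) and 3 and 1 (wt/wt 2 left out).

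Among 8 tested genes of MMP inhibition and clearance other than TIMPs, 0 were higher and 2 lower by edgeR (2 higher and 4 lower at an unadjusted p under 0.05; DESeq2 called 2 higher and 3 lower, limma-voom 0 and 3), with a median log2 fold change of −0.69. Thbs1, the matrix protein thrombospondin 1, had 1086 and 860.2 CPM in fl/fl cells and 2841 and 2956 CPM in wt/wt cells (log2 fold change −1.57 ± 0.19, SE; adjusted p = 0.0135, edgeR). Sdc1, a heparan sulfate proteoglycan of the cell surface, was at −3.07 ± 0.37 (SE; adjusted p = 0.0134). Reck, a membrane-anchored MMP inhibitor, was at 18.6 and 5.59 CPM in fl/fl cells and 1.21 and 2.58 CPM in wt/wt cells without passing (log2 fold change 2.66, adjusted p = 0.0653). In edgeR the list had 2 genes higher and 3 lower when fl/fl 2 was left out, 0 and 3 when fl/fl 1 was left out, and 0 and 0 without either wt/wt library. DESeq2 called 0 and 2 without wt/wt 1, and 2 and 2 without wt/wt 2.

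Of 17 tested genes whose products share the granules of neutrophil MMPs, 6 were higher and 1 lower by edgeR, with a median log2 fold change of 1.82. At an unadjusted p under 0.05 in edgeR, 11 were higher and 2 lower. DESeq2 called 2 lower, and limma-voom called 6 higher and 2 lower. Arg1, named after its values were seen, had 65.6 and 5.02 CPM in fl/fl cells and 573 and 612 CPM in wt/wt cells. Its log2 fold change of −4.07 did not pass (adjusted p = 0.0654, edgeR). Camp, Ltf and Ngp were also granulocyte precursor markers, Lcn2 a listed activator or partner and Hp a monocyte marker, so the lists overlap. Camp (3.06), the cathelicidin, Ltf (3.04), lactoferrin, Ngp (3.08) and Hp (2.08), haptoglobin, were among those higher, and the metal transporter gene Slc11a1, named after its values were seen, was lower (−0.96, adjusted p = 0.0381, edgeR). DESeq2 called 11 of this list higher, and edgeR called 10 without fl/fl 2, 8 without fl/fl 1 and 0 without either wt/wt library. Without wt/wt 1 and wt/wt 2, DESeq2 called 8 and 9 of them higher. Of 20 tested matrix genes that MMPs can cut, 1 was higher and 1 lower by edgeR, with a median of −0.98 (2 higher and 9 lower at an unadjusted p under 0.05; DESeq2 called 2 and 4, limma-voom 1 and 2). Fn1, fibronectin, had 1777 and 1266 CPM in fl/fl cells and 4708 and 3806 CPM in wt/wt cells (log2 fold change −1.48, adjusted p = 0.0212, edgeR), and Lamc1, the laminin gamma-1 chain, was at 2.06 (adjusted p = 0.0191). Col1a2 and Col4a1 did not pass (adjusted p = 0.0598 and 0.0628); Col1a2 had 0 counts in fl/fl cells. In edgeR the list of matrix genes had 1 higher and 3 lower when fl/fl 1 was left out, 2 and 4 when fl/fl 2 was left out, and 0 and 0 without either wt/wt library. DESeq2 called 1 and 1 without wt/wt 1, and 1 and 3 without wt/wt 2.

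The related ADAM and ADAMTS proteases gave 0 higher and 0 lower among 9 tested genes by edgeR (0 higher and 3 lower at an unadjusted p under 0.05; DESeq2 called 0 and 1, limma-voom 0 and 0), with a median log2 fold change of −0.40. Adam9 was at −0.73 (adjusted p = 0.0934), Adam10 at −0.61 (0.159), Adam17, the sheddase of tumour necrosis factor, at −0.51 (0.185) and Adam19 at 0.37 (0.360). Of 16 tested AP-1 and ETS factors, which act on several MMP promoters, 0 were higher and 1 lower by edgeR (3 higher and 7 lower at an unadjusted p under 0.05; DESeq2 called 1 and 4, limma-voom 0 and 1). Over all 13496 tested genes, 5.85% passed in edgeR, and 1596 were higher and 1444 lower at an unadjusted p under 0.05. The lower factor was Elk3 (−0.90, adjusted p = 0.0242, edgeR). Ets1 (1.29), Fosl2 (−0.76) and Etv6 (−0.55) did not pass, at adjusted p = 0.0653, 0.0724 and 0.114. In edgeR without fl/fl 1, 3 ADAM and ADAMTS genes were lower, and the factors had 1 higher and 2 lower. Without fl/fl 2 the factors had 2 higher and 4 lower, and without either wt/wt library edgeR called 0 of both lists. DESeq2 called 0 of both without wt/wt 1, and without wt/wt 2 it called 2 factors lower and 0 ADAM and ADAMTS genes.

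The genes whose pattern over the 4 libraries lay closest to each member were found by the root mean square (RMS) difference of centred log2 CPM, among genes of at least median expression. For Mmp8 these were Hsd11b1, Ifitm1 and Itgb2l, at 0.15, 0.16 and 0.19 log2 units. For Mmp9 they were G0s2, the chemokine receptor gene Cxcr2 and Actn1, at 0.22, 0.22 and 0.25. For Mmp25 they were Mcm5, Ncapd2 and Mki67, genes of DNA replication, chromosome condensation and proliferation, at 0.13, 0.15 and 0.19.

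Mmp12 was nearest to Ccl7, Abcc3 and Egln3, at 0.23, 0.32 and 0.35 log2 units. Mmp14 was nearest to 1700017B05Rik, Fn1 and Fam129b, at 0.04, 0.06 and 0.09. Mmp13, with 11 and 0 counts in fl/fl cells, had no close neighbour in this pool: Stab1, Tgm2 and C3ar1 were at 0.48, 0.52 and 0.52. Timp1, with 2 and 3 counts in fl/fl cells, was farther still, with Axl, Ms4a7 and Rgs1 at 0.94, 0.94 and 0.98. Genes under median expression were not searched, and the part of low counts in these distances was not tested. Mmp19 and Timp2 had neighbours within 0.03 (Tuba1c, Rabif and Timeless, and Tmem164, Mpnd and Fnta). With 4 libraries such likeness describes these libraries alone.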

How the data were processed

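RNA was sequenced from sorted liver myeloid cells in 2 fl/fl and 2 wt/wt libraries, made by poly(A) enrichment per the labels' protocols. The deposited table holds raw counts per Ensembl gene for each library. The submitters' processing notes name the GRCm38 build, STAR 2.5.0, Trimmomatic 0.33 and FastQC 0.11.5; the counting tool and its strand setting were not given in the sources used here. GENCODE M21 (GRCm38) paired 55227 identifiers with symbols.

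Counts were tested with edgeR 4.0.16 in R 4.3.3: filterByExpr (minimum count 10), TMM factors and a two-sided quasi-likelihood F test of genotype alone, with Benjamini-Hochberg adjustment over all 13496 tested genes. Log2 fold changes (fl/fl over wt/wt) used a prior count of 0.125; their SE was derived from F. TPM used the union of exons. The steps were checked on simulated data. Alternatives were RLE factors, library size only, no filter, prior count 5, DESeq2 1.42.0, voom in limma 3.58.1, the replicate block and leaving out each library; DESeq2 with a library left out was added after seeing the data. Such fits take the lone library of a group to vary as the other group does.

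Members and lists were chosen with earlier results of these data known. Named were the 10 members, other family genes with at least 10 counts, up to 4 genes per list with the smallest unadjusted p, and the 3 genes most like each tested member (log CPM with a prior count of 2). Not every result that this rule names is reported here.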

Additional observations from a re-analysis of the deposited data

How the results depend on the processing

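All directions of the 9 tested members held under the 15 settings except that of Mmp19, at −0.18 to 0.47 with single libraries left out (−0.18 without fl/fl 1 in edgeR and −0.17 in DESeq2). Against 790 genes in all, 2 members higher and 3 lower, the counts were 2088 genes and 4 members higher without a filter. DESeq2 called 1618 genes. Limma-voom called 665 genes, with 1 member higher and 1 lower. The cause of these shifts was not tested. With single libraries left out, edgeR called 0 to 1477 genes, 0 to 3 members higher and 0 to 4 lower. DESeq2 called 1401 genes without fl/fl 2 and 496 without wt/wt 1, and 1 member higher without either wt/wt library. With the replicate block 1215 genes, 3 members higher and 4 lower passed. Deviations of same-numbered libraries correlated at 0.02. With 2 libraries per genotype this cannot decide whether the numbers pair the samples, and the labels do not say. With the longest transcript as length, the neutrophil share of MMPs in fl/fl 2 was 92.2%. Scalings moved the median of all genes by under 0.1 on the log2 scale. Low counts limit Timp1, Timp3, Mmp12 and Mmp13.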
